A study of Apostichopus japonicus with 9 samples.

Results

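The miR-25/92 family is a set of microRNAs (miRNAs), short RNAs that guide repression of messenger RNAs, found under different names in vertebrates, flies and nematodes. Here it comprises 5 of the 409 miRNA names tabulated for Apostichopus japonicus, a sea cucumber, from its intestine: miR-92c-3p, miR-92d, miR-25, the fly name miR-312 and the nematode name miR-235b-3p. They were chosen by name, with the miR-25 and miR-92 names joined to a fly name and a nematode name known to share their seed. Animals of 100 to 120 g were held at 26 °C for 6 h or 48 h, or kept under conditions the labels call normal. Each group had 3 libraries from individual animals. The sources used here give no age or sex, and no temperature or sampling time for the control. A single control group served both times, so the warm water and the time held cannot be told apart. The labelled tissue could not be checked against markers, because the tables list only names that differ between groups, and in whole intestine fewer cells of a type and less RNA per cell cannot be told apart.

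Members of this family are grouped by a common seed, the stretch near the 5′ end of a miRNA that pairs with its targets. In vertebrates miR-92a closes the cluster that begins with miR-17 and is known for promoting cell proliferation, while miR-25 lies with miR-93 and miR-106b in an intron of the replication gene MCM7. In Drosophila the family includes miR-92a and miR-92b, which are known from the nervous system, and the cluster of miR-310, miR-311, miR-312 and miR-313. In Caenorhabditis elegans the family member is miR-235, known for holding blast cells quiescent when food is absent. A name in these tables says which known miRNA the authors matched, not that the sea cucumber has that gene.

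Each table sets a heat group beside the control and holds, for a group, the summed reads of its libraries and the average of their RPM values (reads per M reads, M standing for mega; a level). No value per animal is given, so the means below carry no SD and no test between animals could be run. The totals of the 3 libraries, recovered from the counts and means, ran from 91.6 to 145 M reads in the control, 54.4 to 96.9 M reads at 6 h and 57.2 to 113 M reads at 48 h. They cannot be tied to particular animals and are called the shallowest, middle and deepest library of a group. Dividing a summed count by the summed RPM gives the total of 1 library when all reads came from it, and a value between totals otherwise, which bounds the level in each library. The smallest level of a library that alone held a listed name was 20.01 RPM, so a library at 0 was taken to hold under 20 RPM. Counting error was small: the smallest member count above 0 was 1162 reads (exact Poisson 95% interval 1096 to 1231) and the largest 820533 (818759 to 822310).

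The family's listed members moved in both directions. At 6 h miR-235b-3p, miR-92d and miR-92c-3p stood higher and miR-25 lower than in the control; at 48 h miR-92c-3p, miR-312 and miR-235b-3p stood higher and miR-25 lower. The tables thus list 4 of the 5 members at 6 h, 3 higher and 1 lower, where 68.2% of the 403 miRNAs tested were listed (38.7% higher and 29.5% lower). At 48 h they also list 4 of the 5, again 3 higher and 1 lower, where 69.9% of 415 were listed (43.1% higher and 26.7% lower). Being listed means more than 2-fold apart on pooled counts with a q-value under 0.05 in the authors' deposited table. The related name miR-311-3p had reads in only 1 library at 6 h, yet its q-value in that deposited table was 3.01e-261. These q-values thus follow read counts and do not measure the spread between animals. The members' share was close to that of all names. Their median log2 ratio in the authors' deposited table was 2.83 at 6 h and 2.76 at 48 h, beside 1.71 and 1.55 over all listed names. With 4 members, each median lies midway between unlike ratios in the authors' deposited table, 1.10 and 4.57 at 6 h and 1.26 and 4.25 at 48 h. No listed name lies within 2-fold, so the median of all names depends on how many were higher or lower. These medians therefore do not measure a shift of the family. At each time all 4 listed members had reads in more than 1 library of their higher group, which held for 26.2% of all names listed at 6 h and 30.3% at 48 h. The members were chosen with earlier results known. Among the other names with the family's numbers at 6 h, miR-312-3p also had reads in more than 1 library. The names miR-235, miR-311-3p and miR-92b-5p had them in 1 library only. Most of a level could still lie in 1 library, as given for each member below.

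**Figure D1:**
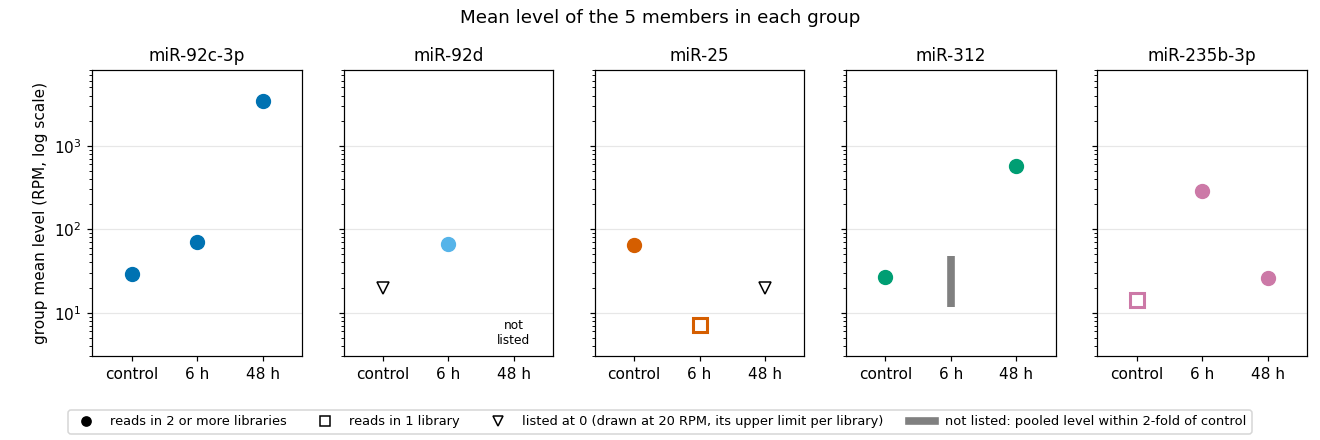
Group mean level of each member in RPM on a log axis, for control, 6 h and 48 h. Filled circles have reads in 2 or more libraries, open squares in 1 library, open triangles mark a listed 0 drawn at its limit of 20 RPM, and the grey bar spans the pooled levels within 2-fold of control that an unlisted name can have. miR-92c-3p reaches 3433 RPM at 48 h, miR-235b-3p peaks at 284 RPM at 6 h, and miR-25 is highest in the control at 65.04 RPM.

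Under a stricter call, libraries of the lower group that may have held less than 20 RPM were put at 20 RPM, and the means still had to be at least 2-fold apart. It kept 3 members at 6 h: miR-235b-3p and miR-92d higher and miR-25 lower, beside 20.1% of tested miRNAs, 12.9% higher and 7.2% lower. At 48 h it kept miR-92c-3p and miR-312 higher and miR-25 lower, beside 21.4% of tested miRNAs, 14.5% higher and 6.99% lower. miR-92c-3p at 6 h had a stricter ratio of 1.98. miR-235b-3p at 48 h had no excess over the control by this measure.

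miR-92c-3p, which bears the number of the miR-92 miRNAs of vertebrates and flies, reached the highest level of any member, at 48 h. Its mean level was 29.1 RPM in the control, 70.9 RPM at 6 h and 3433 RPM at 48 h, from pooled counts of 10273, 14020 and 820533 reads. The level at 48 h was 118-fold above the control and 48.4-fold above 6 h. Among the 73 names with reads in both groups it ranked 1 by log2 ratio in the authors' deposited table at 48 h, and by mean level it ranked 8 of the 194 names with reads there, against 89 of 202 in the control. The spread between animals is bounded as follows. At 48 h the deepest library must hold between 3561 and 4125 RPM, while the shallowest can hold up to 6174 RPM and the middle up to 6738 RPM. In the control no library can exceed 66.5 RPM, so the deepest 48 h library alone stood at least 53.6-fold above every control library. Without the 48 h library with the most, the others would average between 1781 and 3246 RPM. The lowest coefficient of variation between libraries that the columns allow was 10.6% at 48 h and 13.5% in the control.

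At 6 h the difference of miR-92c-3p was far smaller, 2.44-fold on the means and 2.14-fold on the pooled counts. It ranked 44 of 67 names by log2 ratio in the authors' deposited table. At least 1 library at 6 h held 94.1 RPM or more, above the highest possible control library, and the shallowest held between 48.4 and 155 RPM. The deepest 6 h library held at most 57.5 RPM, a level that control libraries can also have, so the groups may overlap. The mean without the 6 h library with the most lies between 24.2 and 59.4 RPM, a range that includes the control mean. Leaving the 5 most abundant listed miRNAs out of the totals shifts every log2 ratio at 6 h by -0.23, because these took 0.509% of reads at 6 h and 15.3% in the control. With that shift the log2 ratio of pooled counts was 0.86, below 2-fold.

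miR-92d was listed at 6 h only, with 65.9 RPM from 13330 reads against a listed 0 in the control, at least 3.30-fold higher. The shallowest 6 h library held between 24.6 and 137 RPM of it, the middle at most 173 RPM and the deepest at most 60.5 RPM. Reads therefore came from at least 2 libraries, and without the one with the most the others would average between 12.3 and 57.3 RPM. The lower end of that range is under the 20 RPM limit of the control. The counts of miR-92d and miR-92c-3p at 6 h were 4.92% apart, but in the control they were 0 and 10273 reads, so the names did not count the same reads throughout. The related name miR-312-3p had 15829 reads at 6 h, 11.4% apart from the 14020 reads of miR-92c-3p. Whether these names shared reads at 6 h was not tested. At 48 h, when miR-92c-3p was at its highest, miR-92d was not listed. Any name without control reads lies beyond 2-fold once it has reads, so a level of miR-92d at 48 h that the authors' filters passed would have been listed.

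miR-25 moved the other way. This name, in vertebrates a neighbour of miR-93 and miR-106b, was the most abundant member in the control at 65.04 RPM (22622 reads), had 7.12 RPM at 6 h (1162 reads) and was listed at 0 at 48 h. In the control the deepest library held between 37.5 and 89.2 RPM, the middle up to 158 RPM and the shallowest up to 105.9 RPM, and a nearly even spread is possible, the lowest coefficient of variation allowed being 4.25%. All 6 h reads came from the shallowest library, which had 21.4 RPM, while the other two had less than 20 RPM each. The deepest control library was therefore at least 1.76-fold above the highest 6 h library. The 6 h mean was 9.13-fold below the control mean. With libraries without reads set to 20 RPM, miR-25 was at least 3.18-fold lower at 6 h and at least 3.25-fold lower at 48 h. Without the control library with the most, the other control libraries would average between 18.7 and 64.0 RPM, so at the lower end the difference from a 48 h limit of 20 RPM would be lost. Among the 67 names with reads in both groups it ranked 2 from the lowest at 6 h in the authors' deposited table.

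**Figure D2:**
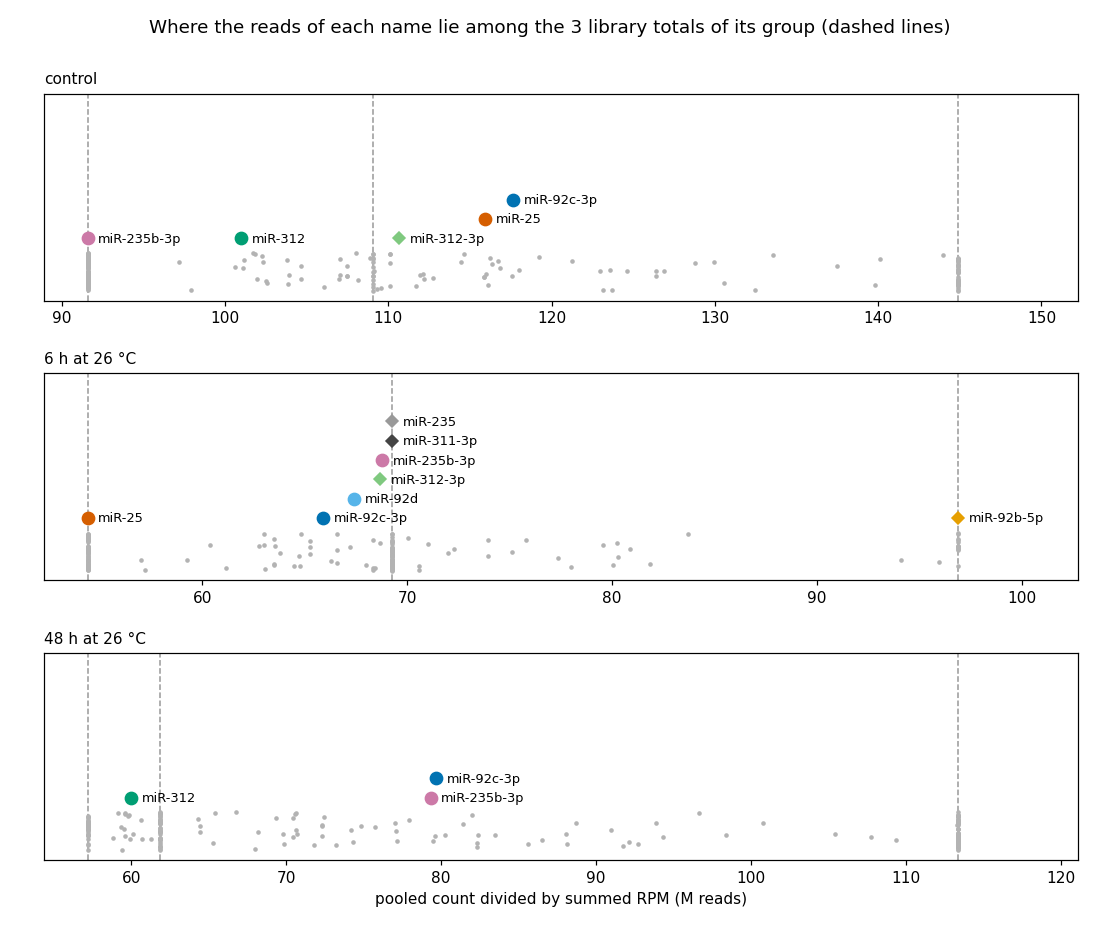
Pooled count divided by summed RPM, in M reads, for each listed name with reads in the control, at 6 h and at 48 h. Dashed lines are the 3 library totals of a group, grey dots are other names, coloured circles the members and diamonds other family names. miR-25 at 6 h and miR-235b-3p in the control sit on the shallowest library's line, while miR-312 at 48 h lies between the lines of the 2 shallower libraries.

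miR-312, a name of the Drosophila miR-310 cluster, was high at 48 h. It had 579 RPM at 48 h from 104154 reads, against 26.9 RPM from 8157 reads in the control, 21.5-fold higher on the means and 18.98-fold on the pooled counts. It ranked 3 of 73 names by log2 ratio in the authors' deposited table. The 48 h reads were unevenly spread: the shallowest library held between 693 and 1648 RPM and the deepest at most 87.2 RPM, no more than 5.03% of the summed level. The coefficient of variation between the 48 h libraries was at least 84.1%. The shallowest 48 h library was at least 10.4-fold above any control library, which held at most 66.5 RPM. The deepest can lie within the control range. Without the library with the most, the 48 h mean lies between 43.6 and 438 RPM. If every control library with reads held at least 20 RPM, the count and mean of miR-312 in the control have 1 solution: 37.2 RPM in the shallowest library, 43.5 RPM in the middle and 0 in the deepest.

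miR-312 was not listed at 6 h, whereas the related name miR-312-3p was listed there and not at 48 h. miR-312-3p had 76.8 RPM at 6 h against 22.4 RPM in the control, 3.43-fold higher, and passed the stricter call at 2.64-fold. Up to 96.0% of its 6 h level could lie in 1 library. Without the library with the most, the others would average between 4.59 and 68.9 RPM, a range that includes the control mean. If tested and within 2-fold of the control, miR-312 at 6 h had a pooled level between 11.8 and 47.2 RPM. On the same reading miR-312-3p at 48 h had between 10.8 and 43.1 RPM, far below the 448 RPM pooled level of miR-312 at that time. In the control the counts of both names, 8157 and 7438 reads, were 8.81% apart. Their reads were spread differently over libraries, since with the 20 RPM minimum miR-312-3p had 43.1 RPM in the shallowest control library, 0 in the middle and 24.1 RPM in the deepest. With that minimum the pair shared only the shallowest control library. Without it the columns allow miR-312 up to 14.3 RPM in the deepest control library and miR-312-3p up to 64.2 RPM in the middle.

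miR-235b-3p, named after the nematode member, had its highest mean level at 6 h. Its mean level was 14.03 RPM in the control, 284 RPM at 6 h and 26.2 RPM at 48 h, from 3855, 58556 and 6228 reads. At 6 h it was 20.2-fold above the control on the means, and at least 10.4-fold with the control libraries without reads at 20 RPM. It ranked 2 of 67 names by log2 ratio in the authors' deposited table and 17 of 176 by mean level. All control reads came from the shallowest library at 42.1 RPM. At 6 h at least 1 library held 342 RPM or more, at least 8.11-fold above that control library. The shallowest 6 h library held between 28.3 and 564 RPM, the middle up to 823 RPM and the deepest up to 288 RPM. Up to 96.7% of the 6 h level could lie in the middle library, and without the library with the most the others would average between 14.1 and 255 RPM. The lower end lies just above the control mean, so the columns allow the rise to rest on 1 library as well as on several.

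At 48 h miR-235b-3p was again near the control. The ratio of means was 1.87 and that of pooled counts 2.40, so its listing at 48 h rests on the pooled scale. The deepest 48 h library held between 26.6 and 30.9 RPM and no 48 h library more than 51.9 RPM, while 1 control library had 42.1 RPM and the others less than 20 RPM. The groups therefore overlapped. With those control libraries at 20 RPM the log2 ratio was -0.06. Relative to 6 h, the 48 h mean was 10.8-fold lower, and the 6 h library with the most was at least 6.58-fold above every 48 h library. Without that 6 h library the 6 h mean could be as low as 14.1 RPM, below the 48 h mean.

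**Figure D3:**
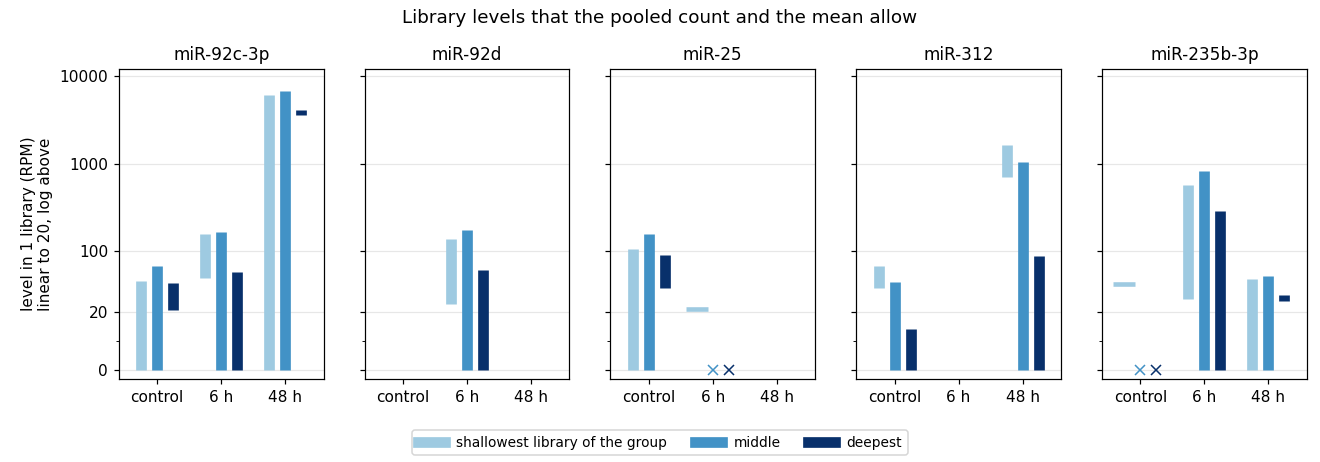
Level that each library of a group can have for each member, in RPM, linear to 20 and logarithmic above. Bars span the values that the pooled count and the mean allow, short dashes are values fixed at 1 library, and crosses are libraries without reads. For miR-92c-3p the deepest 48 h library lies between 3561 and 4125 RPM, above every control and 6 h bar. For miR-312 the deepest 48 h library reaches at most 87.2 RPM.

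Other listed names with numbers of this family were few and low. miR-235, the name of the nematode miRNA itself, had 16.4 RPM at 6 h, all from the middle library at 49.2 RPM. miR-311-3p, from the same fly cluster as miR-312, had 9.14 RPM at 6 h, from the same middle library at 27.4 RPM. miR-92b-5p, which is named for the opposite arm and so carries another seed, had 8.59 RPM at 6 h, all from the deepest library at 25.8 RPM. All of these were listed at 0 in the control and not listed at 48 h, and no fold is given since their means lie under 20 RPM. With the 5 members and miR-312-3p, 9 names with the family's numbers were tabulated, miR-92b-5p included, 8 of them at 6 h and 4 at 48 h. At 6 h 7 of the 8 were higher, beside 156 of all 275 listed names. The stricter call kept 3 of these 7 and 52 of those 156, the latter being 12.9% of all tested miRNAs. No miR-32, miR-310, miR-313, miR-363 or miR-367 name, which belong to the same family, was listed at either time. Nor was any miR-17, miR-18, miR-19, miR-20, miR-93 or miR-106 name, the neighbours of miR-92a and miR-25 in vertebrate clusters.

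On the listed means, the name with the largest share of the family's level was a different one in each group. The listed mean levels of all 9 names, with miR-92b-5p, summed to 158 RPM in the control, 539 RPM at 6 h and 4038 RPM at 48 h. miR-25 made up 41.3% of the control sum, miR-235b-3p 52.7% at 6 h and miR-92c-3p 85.02% at 48 h. miR-92c-3p held 18.5% in the control and 13.2% at 6 h. miR-25 held 1.32% at 6 h, and miR-235b-3p 0.648% at 48 h against 8.91% in the control. The sum was 25.6-fold above the control at 48 h and 3.42-fold at 6 h. The lead of miR-235b-3p and the size of the sum at 6 h can rest on 1 library, since without the library with the most its mean could be 14.1 RPM, below the 70.9 RPM of miR-92c-3p. So can the lead of miR-25 in the control, where its mean without that library could be 18.7 RPM, below the 29.1 RPM of miR-92c-3p. The sum leaves out miR-312 at 6 h and miR-312-3p at 48 h, which were not listed, and counts reads more than once if names share them. Whether the same reads were given different names in different libraries was not tested, since no sequences were used.

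**Figure D4:**
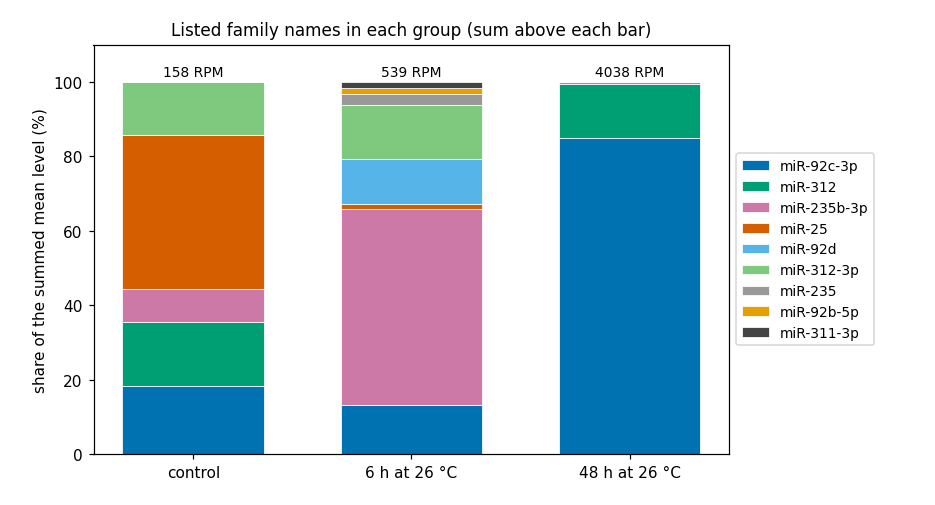
Share of each listed family name in the summed mean level of the group, in percent, with the sum in RPM above each bar. miR-25 leads in the control at 41.3%, miR-235b-3p at 6 h at 52.7% and miR-92c-3p at 48 h at 85.02%.

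Between the heat times, 2 members were listed with reads at both: on the means miR-92c-3p was 48.4-fold higher and miR-235b-3p 10.8-fold lower at 48 h than at 6 h. Without the 6 h library that held most of it, the log2 ratio of miR-235b-3p could be as high as 0.89, so its direction between the times can rest on that library. For miR-92c-3p the deepest 48 h library, with at least 3561 RPM, lay at least 21.7-fold above any 6 h library, which held at most 164 RPM. miR-25 was listed at 0 at 48 h and had 21.4 RPM in 1 library at 6 h, too close to the limit for a fold.

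To place these patterns, each member listed in both tables was compared with the others among the 156 names listed in both, by the distance between the pairs of log2 ratios in the authors' deposited tables. Both ratios share the control libraries. miR-92c-3p, with ratios of 1.10 at 6 h and 6.89 at 48 h in the authors' deposited tables, had no close neighbour. The nearest was miR-8224-5p at a distance of 3.14, with ratios of -1.48 and 5.08 in the authors' deposited tables and its reads in 1 library at each heat time, followed by miR-2763-3p at 4.34 and miR-79-3p at 5.05. miR-235b-3p, with ratios of 4.57 and 1.26 in the authors' deposited tables, lay nearest to miR-1587 at 1.23, miR-71-5p at 1.29 and miR-2981 at 1.502. miR-71-5p had 601 RPM at 6 h and 136 RPM at 48 h, against 60.7 RPM in the control. miR-25 lay nearest to miR-8112 at 1.97, miR-234 at 2.99 and miR-4417 at 5.56, all listed at 0 at 48 h like miR-25, so these distances rest partly on the value of 0.5 reads that stands for 0. miR-4417 was higher than the control at 6 h, where miR-25 was lower.

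**Figure D5:**
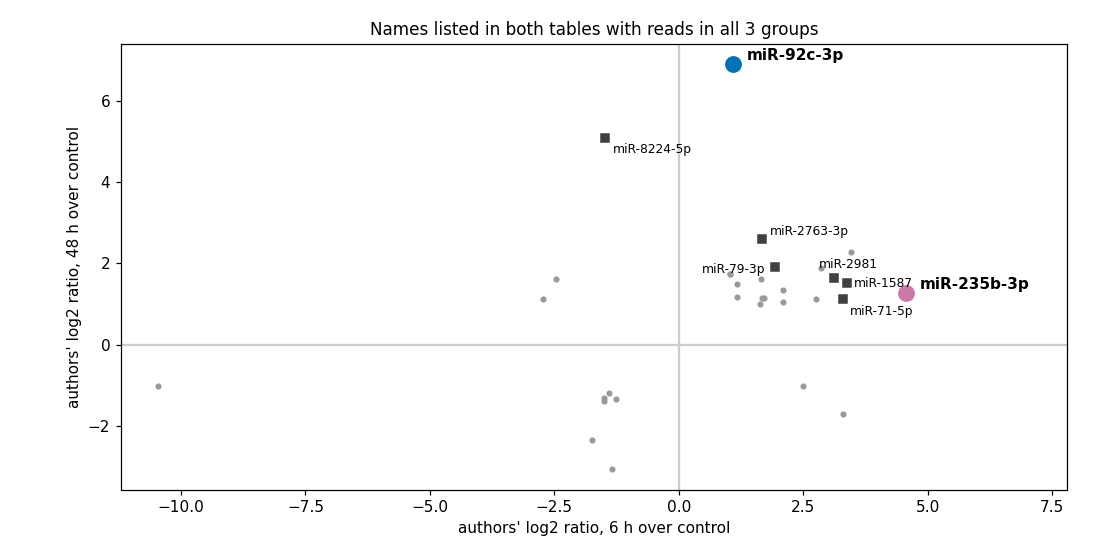
Log2 ratio to control at 48 h against that at 6 h, from the authors' deposited tables, for the 32 names listed in both tables with reads in all 3 groups. Large coloured points are members, labelled squares their nearest names and grey dots the rest. miR-92c-3p lies alone at 1.10 and 6.89, and miR-235b-3p has the highest 6 h ratio of those drawn, 4.57, from the authors' deposited tables.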

How the data were processed

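Per the labels' protocols, RNA of 18 to 30 nt from intestine was size-selected, ligated to adapters on both ends and sequenced on a HiSeq instrument. The sources used here name no trimming step, aligner, miRNA database or counting rule. Per the file headers, the authors deposited a read count per group, an expression value, a log2 ratio of heat over control, a p-value and a q-value. Tested on the values, the deposited expression is RPM averaged over 3 libraries, with 0.001 for a library without reads. The authors' log2 ratio uses pooled counts. Their test is not named, and p-values of all 5 members were entered as 0.

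Replicated tests were planned for columns per library. Since every column is pooled over a group, the authors' q-values and ratios were used and no test was run. The members, the related names and the tests were chosen with earlier results of these data known.

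Library totals were taken as the 3 densest values of count over summed RPM, 2 entries of 0.001 removed. Summed, they match the scaling inside the authors' deposited log2 ratios to 0.0127% (6 h) and 0.0271% (48 h). Levels per library are the values that solve count and mean with no level below 0. A name was assigned to 1 library where this ratio matched a total within rounding. Splits of the deposited counts were simulated with the recovered totals. They check the calculation, not the totals or the 20 RPM minimum. The bounds held for 188 of 189 control names, 163 of 163 names at 6 h and 186 of 186 names at 48 h. The exception was 1 name with reads in several libraries assigned to 1. The numbers tested, 403 and 415, come from the ratios of q to p. Named miRNAs are the members, listed names with the family's and its cluster neighbours' numbers, and the 3 nearest names in log2 ratios. Python 3.11.15 with numpy 2.4.6, pandas 2.3.3 and scipy 1.17.1 was used.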

Additional observations from a re-analysis of the deposited data

How the results depend on the processing

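No paired analysis was possible because the columns sum or average the libraries of a group and carry no replicate number. Joining family names was not run, since no pair of them had counts within 15% in both groups of a table. Values here are log2 ratios. Of 52 alternatives for ratios to the control, 41 kept the direction and the side of the 2-fold threshold, 4 fell below it, 2 passed it and 5 reversed in sign. The reversed values of miR-92d at 6 h and miR-25 at 48 h used 20 RPM, an upper limit, in place of a listed 0. So did that of miR-235b-3p at 48 h with the control libraries without reads at 20 RPM. Such a value shows that the limit no longer gives a direction, not that the direction turned. Of 12 alternatives for 48 h over 6 h, 11 kept the direction and stayed beyond 2-fold and 1 reversed. Without the library that held most, the possible values for 6 h over control ran from -0.27 to 1.03 for miR-92c-3p, from -0.70 to 1.52 for miR-92d and from 0.011 to 4.18 for miR-235b-3p. For 48 h over control they ran from -1.68 to 0.093 for miR-25, from 0.70 to 4.02 for miR-312 and from -0.077 to 0.83 for miR-235b-3p. For 48 h over 6 h they ran from 4.65 to 5.52 for miR-92c-3p and from -3.28 to 0.89 for miR-235b-3p. The increase of miR-92c-3p at 48 h over control stayed above 2-fold in all settings run, between 5.93 and 6.89. Its 6 h ratio was 0.86 on pooled counts with the 5 most abundant listed miRNAs left out of the totals. For miR-235b-3p at 48 h over control the ratio was 1.26 on pooled counts, 1.22 with those 5 also left out and -0.064 with the control libraries without reads at 20 RPM. For 48 h over 6 h, pooled counts gave 5.80 for miR-92c-3p and -3.31 for miR-235b-3p, leaving out those 5 gave 5.78 and -3.25, and both changes gave 5.98 and -3.12. Combining pooled counts with the 5 left out, and putting libraries without reads at 20 RPM, were chosen after seeing the data. Depth did not limit the counts, but the columns do not fix the spread between animals.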
